A study of Mus musculus with 4 samples.

Results

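JunB-binding and BATF-binding sites in activated regulatory T (Treg) cells were compared through the peak lists of 2 chromatin immunoprecipitation-sequencing (ChIP-seq) libraries. In this assay DNA fragments bound by a protein are recovered with an antibody and sequenced, and a peak is a stretch of genome with more fragments than its surroundings. The JunB list held 29659 peaks and the BATF list 13570 peaks, which together were 43229 of the 103355 peaks listed in the 4 libraries of the study. Peaks that overlapped by at least 1 bp were called shared. This gave 9771 JunB peaks with BATF, 19888 JunB peaks without BATF and 3970 BATF peaks without JunB, while 9600 BATF peaks overlapped JunB.

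The cells were CD4+CD25+ Treg cells from spleens of C57BL/6 mice, stimulated for 60 h with antibodies to CD3 and CD28 and with IL-2. The methods of the study give the mice as Junb fl/fl without Cre and 6 to 12 weeks old, whereas the sample labels give Foxp3cre JUNB+/+. Either way the cells of both libraries were Junb-sufficient. The other 2 libraries, used here only for the place of IRF4 peaks, were IRF4 ChIP-seq of Junb-sufficient cells and of Junb-deficient cells, given as Cd4Cre Junb fl/fl by the methods, in which Cre acts in every CD4-expressing lineage and not in Treg cells alone. Each condition had 1 library, so no test between libraries was possible. One label, the antibody, has BATF and IRF4 the other way round, and libraries were named by their titles, which match the study's list of libraries. The naming by antibody was tried for the overlap of the lists, the shares at promoters, beyond 100 kb of a TSS, with an AP-1 match and with an IRF4 peak, and the number of genes with shared peaks or with BATF alone. Other motifs, place, chromosomes and gene lists were not computed under it.

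AP-1 transcription factors are dimers of basic leucine zipper proteins. JunB is a Jun-family member, and BATF, which has no transactivation domain of its own, pairs with Jun proteins and reads the same 7-base AP-1 motif. BATF–Jun dimers bind together with IRF4 at composite sites (AICE) in lymphocytes. BATF and IRF4 are known for their roles in effector Treg (eTreg) cells, an activated subset present in spleen and enriched in non-lymphoid tissues. Peaks were therefore described by whether the partner factor was listed at the same place, and by the motifs beneath them.

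The following reference sequences are examples of the 3 classes, at genes that the study follows in eTreg cells and at S1pr1, which is from a list of the resting T cell program. Each is the middle of a peak in mm9, on the + strand and from 5′ to 3′, 151 bases long, with matches to the AP-1 motif (TGACTCA or TGAGTCA) in capitals. The peaks are the first of their class in list order at each gene. ICOS and CTLA-4 are a costimulatory and an inhibitory receptor, MAF and BLIMP-1 (Prdm1) are transcription factors of effector cells, ST2 (Il1rl1) is the IL-33 receptor, and S1PR1 is a receptor for egress from lymphoid tissue.
Icos, JunB with BATF, chr1:61083661-61083811: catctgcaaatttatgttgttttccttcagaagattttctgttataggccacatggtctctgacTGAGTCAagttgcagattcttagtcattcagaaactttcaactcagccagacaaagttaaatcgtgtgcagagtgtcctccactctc
Ctla4, JunB with BATF, chr1:60995927-60996077: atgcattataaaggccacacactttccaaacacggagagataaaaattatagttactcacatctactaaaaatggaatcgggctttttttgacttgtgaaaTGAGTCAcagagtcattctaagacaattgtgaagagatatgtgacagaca
Maf, JunB with BATF, chr8:118295043-118295193: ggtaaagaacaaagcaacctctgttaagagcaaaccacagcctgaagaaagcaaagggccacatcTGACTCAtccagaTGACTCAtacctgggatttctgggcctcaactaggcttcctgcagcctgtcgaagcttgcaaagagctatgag
Il1rl1, JunB with BATF, chr1:40470001-40470151: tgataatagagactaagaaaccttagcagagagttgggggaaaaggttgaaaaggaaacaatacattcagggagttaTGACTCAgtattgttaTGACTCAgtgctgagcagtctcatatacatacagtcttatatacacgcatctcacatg
Prdm1, JunB with BATF, chr10:44164308-44164458: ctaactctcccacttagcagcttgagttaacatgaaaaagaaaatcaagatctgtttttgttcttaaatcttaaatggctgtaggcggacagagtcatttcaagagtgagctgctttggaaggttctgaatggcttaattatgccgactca
Icos, JunB without BATF, chr1:61107325-61107475: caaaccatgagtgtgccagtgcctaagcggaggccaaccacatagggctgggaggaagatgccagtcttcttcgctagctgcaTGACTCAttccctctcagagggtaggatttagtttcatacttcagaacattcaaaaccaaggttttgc
Ctla4, JunB without BATF, chr1:60965703-60965853: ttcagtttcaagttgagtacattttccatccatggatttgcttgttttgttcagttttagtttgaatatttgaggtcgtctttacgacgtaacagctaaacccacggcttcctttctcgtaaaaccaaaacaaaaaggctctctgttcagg
Prdm1, JunB without BATF, chr10:44167221-44167371: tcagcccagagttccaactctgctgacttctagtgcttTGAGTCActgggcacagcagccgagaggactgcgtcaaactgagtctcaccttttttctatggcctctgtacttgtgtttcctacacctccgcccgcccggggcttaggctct
Prdm1, BATF without JunB, chr10:44259353-44259503: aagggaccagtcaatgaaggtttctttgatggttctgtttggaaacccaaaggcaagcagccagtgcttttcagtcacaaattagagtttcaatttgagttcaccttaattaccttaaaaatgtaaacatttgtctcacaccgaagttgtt
S1pr1, BATF without JunB, chr3:115461396-115461546: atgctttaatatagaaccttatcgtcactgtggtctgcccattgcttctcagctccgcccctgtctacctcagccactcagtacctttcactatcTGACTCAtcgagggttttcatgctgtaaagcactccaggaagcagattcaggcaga

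The shared peaks of Icos (intergenic, 49.0 kb downstream of the TSS, place 391 of the JunB list) and Ctla4 (intergenic, place 390) each held 1 AP-1 match, and an IRF4 peak was listed at both in Junb-sufficient cells. Distances from a TSS are negative upstream of it. The Maf peak lay at -63.4 kb and the Il1rl1 peak at -16.3 kb, both intergenic, and each held 2 matches. The shared peak of Prdm1, in an intron at place 360, held none, nor did the first shared peaks of Gzmb, Nt5e and Ccr9. The Ctla4 peak without BATF, in contrast, stood in a promoter, at -91 bp from a TSS, and held none.

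JunB peaks were shared in 32.9% of cases (95% exact binomial interval 32.4 to 33.5, 9771 of 29659) and BATF peaks in 70.7% (70.0 to 71.5, 9600 of 13570). With as many JunB peaks as BATF peaks, taken from the start of each list, the shares were 54.0% and 53.3%, and with the naming by antibody 42.8% and 40.3%. BATF peaks were 613 bp wide in all but 2 cases and JunB peaks 151 bp in all but 3, and 169 BATF peaks overlapped more than 1 JunB peak. No JunB peak overlapped more than 1 BATF peak. Where they were shared, the centres of the JunB and BATF peaks lay a median of 25 bp apart, and 75.5% lay within 50 bp. Unshared peaks mostly lay far from the other factor. For JunB peaks without BATF the nearest BATF centre was at a median of 37.9 kb, and for BATF peaks without JunB the nearest JunB centre was at a median of 18.5 kb, with 27.8% and 33.8% of them within 10 kb. Intervals here and below cover counting error over peaks only, and neighbouring peaks are not independent.

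Shared peaks stood early in both lists. Neither file states the order of its peaks and the score of every peak is 1, so place in the list was used in place of peak height. Each list was divided into 10 equal parts from its start. The first JunB part overlapped BATF in 88.7% (87.5 to 89.8) of cases, the fifth in 24.6% and the last in 9.54% (8.51 to 10.7). The BATF list fell more slowly, from 99.6% in the first part to 79.9% in the fifth and 31.2% in the last. The first BATF peak without JunB came only at place 744. It follows that 78.1% of JunB peaks with BATF but 36.2% of JunB peaks without BATF were in the first 50% of their list. For BATF the corresponding shares were 65.4% with JunB and 12.8% without. Shares of features were therefore also compared between the shared and unshared peaks of each factor within 20 strata of place, as a Mantel-Haenszel difference, whereas comparisons between the factors, within promoter peaks, by IRF4 overlap and over genes were not stratified.

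**Figure D1:**
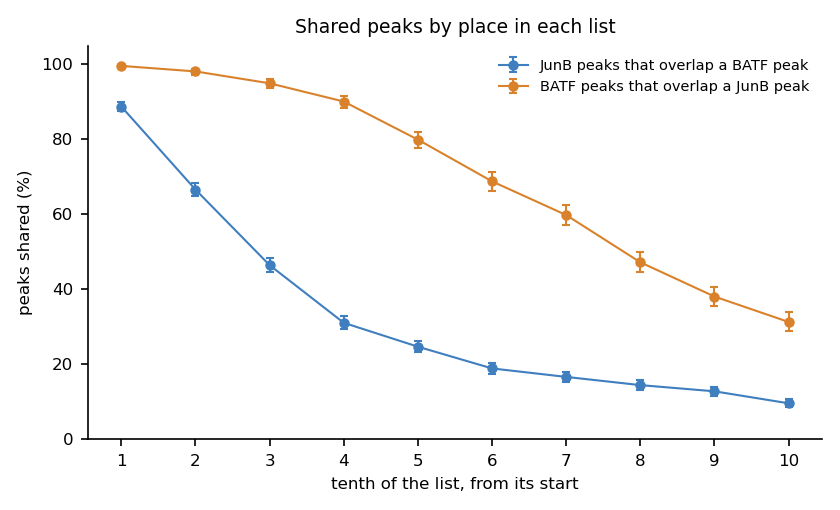
Share of JunB peaks that overlap a BATF peak (blue) and of BATF peaks that overlap a JunB peak (orange), in percent, over 10 equal parts of each list from its start, with 95% exact binomial intervals. Both shares fell at every step along the list, from 88.7% to 9.54% for JunB and from 99.6% to 31.2% for BATF.

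The very first entries differed from the rest in their sequence. Of the first 10 JunB peaks, 0 held an AP-1 match within 100 bp of the centre, against 511 of the first 1000 (51.1%). A peak at the same place in all 4 libraries did not set them apart. It was found for 7 of the first 10 and for 874 of the first 1000 (87.4%). The first 2 entries lay at chr2:98507239-98507389 and chr12:3109943-3110093, and their letters are those of the mouse major satellite, a repeat next to centromeres, by general knowledge rather than from a repeat annotation.
first JunB peak, chr2:98507239-98507389: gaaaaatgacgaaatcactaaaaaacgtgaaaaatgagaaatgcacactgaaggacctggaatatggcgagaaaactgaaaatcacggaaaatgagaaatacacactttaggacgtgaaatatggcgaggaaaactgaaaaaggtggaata
Windows with at least 20 bases in a row in common with the first peak, on either strand, were few, 10 of the JunB peaks with BATF, 10 of those without and 1 of the BATF peaks without JunB. No control library entered the recorded peak calls.

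Peaks of BATF without JunB lay at promoters more often than the other classes. A promoter was the sequence within 1 kb of the transcription start site (TSS) of a protein-coding transcript, measured from the peak centre. The promoter share was 12.4% (11.4 to 13.4, 491 of 3970) for BATF peaks without JunB and 5.93% (569 of 9600) for BATF peaks with JunB, a difference of 6.44 points (Newcombe interval 5.34 to 7.59). Within strata of place the difference was 4.47 points (3.18 to 5.77), in the first 50% of each list 2.79 points, and with the naming by antibody 15.2 points. For JunB the promoter share was nearly the same in both classes, 5.95% with BATF and 6.02% without, and their difference of -0.08 points had an interval (-0.64 to 0.51) that included 0. Its sign changed with the promoter width and other settings, and no direction is given for it. In the first of 10 parts of the BATF list only 6 peaks had no JunB partner, none of them at a promoter. The promoter share of this class was 13.2% in the fifth part and 14.5% in the last, against 5.44% and 10.1% of BATF peaks with JunB, and it was the higher of both in each of the 9 parts after the first.

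Taken over the whole list, JunB peaks without BATF were the class farthest from genes. Their median distance from the nearest TSS was 29.8 kb, compared with 19.6 kb for JunB peaks with BATF and 16.3 kb for BATF peaks without JunB. Of the JunB peaks without BATF 26.7% lay beyond 100 kb of any protein-coding TSS and 6.74% beyond 500 kb. Of the JunB peaks with BATF 13.6% and 0.97% did. The difference beyond 100 kb was 13.1 points (12.2 to 14.1), or 10.7 points (9.66 to 11.7) within strata of place. With TSSs of genes of every biotype it was 8.78 points. The difference was not seen at the start of the JunB list. In the first of its 10 equal parts the shares beyond 100 kb were 14.3% without BATF and 15.2% with BATF. In the second they were 15.6% and 14.1%, and in the last 30.5% and 13.8%. Over the whole list, 51.6% of JunB peaks without BATF were intergenic and 40.0% were in introns. JunB peaks with BATF were 43.4% intergenic and 48.2% intronic. BATF peaks without JunB were 41.6% intergenic and 43.7% intronic. Coding and untranslated exons beyond the promoter together held the remaining few percent of each class.

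**Figure D2:**
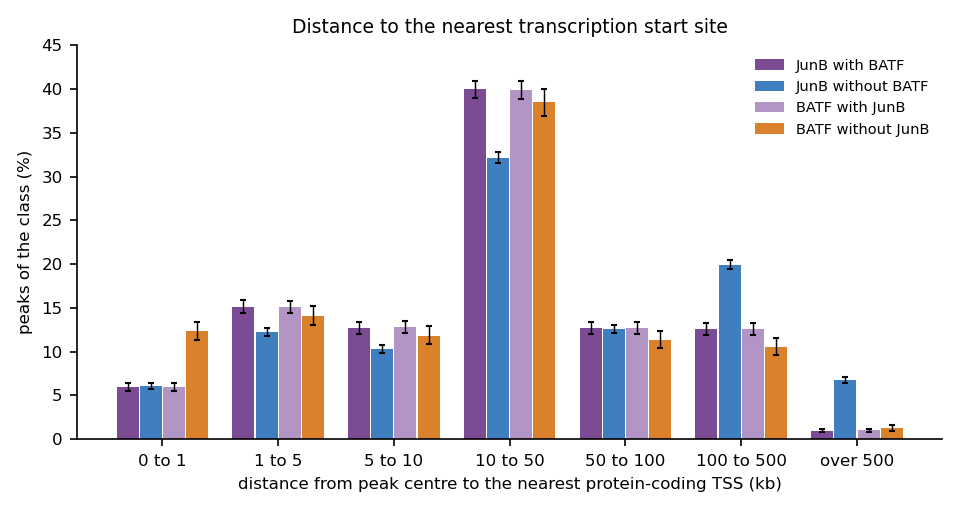
Percent of each class of peaks in bins of distance (kb) from the peak centre to the nearest protein-coding TSS, with 95% exact binomial intervals. BATF peaks without JunB (orange) stand above the others within 1 kb (12.4%), and JunB peaks without BATF (blue) above 100 kb (20.0% from 100 to 500 kb and 6.74% beyond).

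The AP-1 motif was more frequent in shared than in unshared peaks of both factors. Motifs were searched on both strands within 100 bp of the peak centre, and control windows of the same size lay 5 kb away, clear of any listed peak. TGACTCA or TGAGTCA was found in 41.0% (40.0 to 42.0) of JunB peaks with BATF and in 16.4% (15.9 to 16.9) of JunB peaks without BATF, with 3.42% and 3.01% in their control windows. BATF peaks held it in 39.9% of cases with JunB and in 24.7% (23.4 to 26.1) without. The difference was 24.6 points (23.4 to 25.7) for JunB and 15.2 points (13.6 to 16.9) for BATF. Within strata of place these became 16.6 points (15.2 to 17.9) and 14.5 points (12.5 to 16.5), which is a larger change for JunB than for BATF. Over 10 equal parts of the JunB list the classes were closest at its start, with 48.8% and 40.9% in the first part, and in the last part they stood at 30.4% and 11.1%. Matches sat near the peak centre, at a median of 20 bp in JunB peaks with BATF and 25 bp in JunB peaks without.

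Composite sites were rarer. AICE was searched as TTTC, 4 bases of any kind and then TGANTCA, or as GAAA joined directly to TGANTCA, so every AICE match overlaps an AP-1 core of any middle base. It was found in 5.30% of JunB peaks with BATF, 1.26% of JunB peaks without, 5.31% of BATF peaks with JunB and 3.60% of BATF peaks without, against at most 0.21% of their control windows. For JunB the difference was 4.04 points (3.59 to 4.53) and held within strata at 3.11 points (2.58 to 3.65). For BATF the difference of 1.71 points (0.95 to 2.42) shrank to 0.34 points within strata, with an interval (-0.51 to 1.19) that included 0.

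Motifs of other factors followed different lines. The RUNX motif TGTGGTT, read by the RUNX transcription factors of T cells, was found in 11.7% of JunB peaks with BATF and 7.39% of JunB peaks without, with 5.25% and 5.06% in control windows. The CTCF motif, which marks boundaries of chromatin loops, went the other way. It was found in 0.26% of JunB peaks with BATF and 0.82% of JunB peaks without (difference -0.56 points, interval -0.72 to -0.40, and -0.36 points, -0.55 to -0.16, within strata of place). The kappaB motif of the NF-κB family was found in 3.74% and 1.75% of the same classes, and 4.03% of BATF peaks without JunB. A repeat of GAAA at a spacing of 2 bases, the core of the interferon-stimulated response element that IRF proteins read, was found in 9.14% of BATF peaks without JunB and 8.96% of those with JunB, and their difference (-0.19 points with minus without) had an interval from -1.27 to 0.85. The cAMP response element TGACGTCA, which differs from the AP-1 motif by its longer middle, was rare everywhere, at 0.46%, 0.25%, 0.43% and 0.63% of JunB peaks with and without BATF and of BATF peaks with and without JunB.

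**Figure D3:**
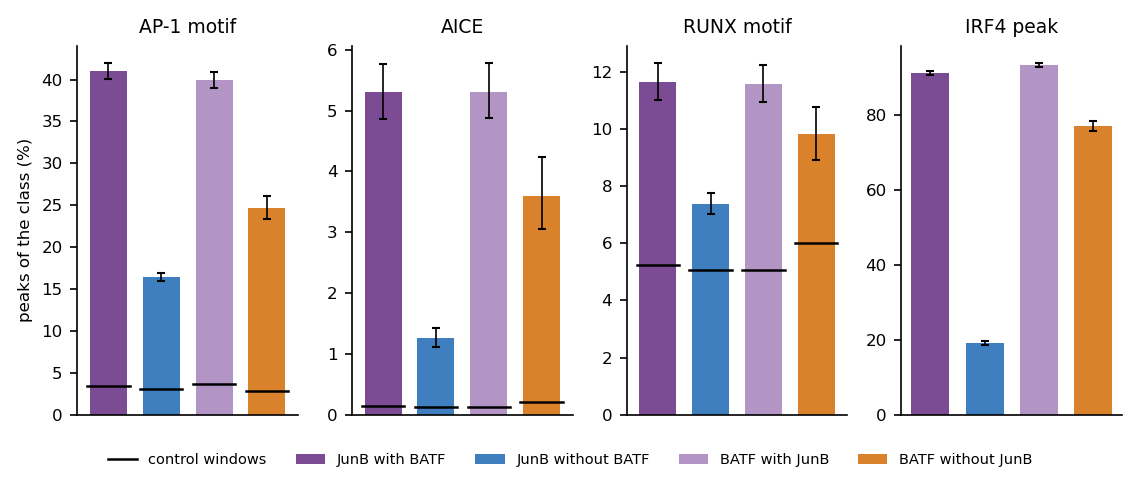
Percent of peaks in each class that hold an AP-1, AICE or RUNX match within 100 bp of the centre or that overlap an IRF4 peak of Junb-sufficient cells. Error bars are 95% exact binomial intervals, black lines the share in control windows 5 kb away, and each panel has its own scale. JunB peaks without BATF (blue) were lowest in every panel (16.4%, 1.26%, 7.39% and 19.0%).

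At promoters the unshared classes of both factors held GC boxes and ETS motifs at similar shares. The GC box GGGCGG, a common element of CpG-rich promoters, was found in 24.1% of promoter peaks of JunB without BATF and 24.2% of those of BATF without JunB, but in 9.64% and 9.31% of the shared promoter peaks. The ETS motif CCGGAAG was likewise found in 8.26% and 8.55% of the unshared, and 3.10% and 2.28% of the shared promoter peaks. The mean number of CpG per window at promoters was 7.14 for JunB without BATF, 7.52 for BATF without JunB, and 4.38 for JunB with BATF. AP-1 matches went the other way, with 33.4% of JunB promoter peaks with BATF and 12.9% of those without.

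With libraries named by their titles, IRF4 was listed at most peaks that held BATF, shared or not. Of BATF peaks with JunB 93.4% overlapped an IRF4 peak of Junb-sufficient cells, and of BATF peaks without JunB 77.0% (75.7 to 78.3) did. That difference of 16.4 points was 9.59 points within strata of place and 9.31 points in the first 50% of each list. With the naming by antibody it was 55.1 points, and most BATF peaks without JunB then had no IRF4 peak. For JunB the shares were 91.3% with BATF and 19.0% (18.4 to 19.5) without, a difference of 72.3 points that remained 65.3 points within strata of place. Among JunB peaks without BATF, those with an IRF4 peak held an AP-1 match in 33.4% of 3777 cases and those without in 12.4% of 16111. Their distance from genes differed as well. Only 12.2% of the former but 30.1% of the latter lay beyond 100 kb of a TSS. The IRF4 peaks were of nearly the same width as the BATF peaks and were called with the same settings, whereas JunB peaks were called with a fragment length of 150 bp and at least 10 tags, and BATF and IRF4 peaks with 612 bp and at least 19 tags. The part of these settings in the overlaps was not tested.

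The X chromosome stood apart in the JunB list. JunB peaks there were shared in 16.9% (14.8 to 19.2, 191 of 1129) of cases, whereas on the autosomes the share ranged from 30.1% on chromosome 8 to 37.3% on chromosome 13. The density of BATF peaks was also lowest on X among these chromosomes, at 1.76 per Mb against 3.85 to 6.93 on the autosomes, and that of JunB peaks was 6.77 per Mb against 8.57 to 13.8. BATF peaks on X were shared in 64.6% (58.9 to 70.1) of cases, within the range of 64.2 to 75.2% on the autosomes. Whether the mice were male or female is not given in the sources used here, and the part of X copy number was not tested.

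Each peak was next given to the gene with the nearest TSS within 100 kb. Of 22380 protein-coding genes, 4843 (21.6%) held a shared peak, 7486 (33.4%) a JunB peak without BATF and 2896 (12.9%) a BATF peak without JunB, and these shares are the background for the gene lists below. The median gene held 0 peaks of each class. JunB was listed at 3704 genes with no BATF peak, BATF at 915 genes with no JunB peak (4494 with the naming by antibody), and 12287 genes had neither. Of the 4843 genes with a shared peak, 3151 also held a JunB peak without BATF, against 33.4% of all genes. The same 3151 genes were among the 7486 with a JunB peak without BATF.

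Bach2 held the most shared peaks of any gene. Bach2, a repressor that maintains resting and central T cells, held 16 shared peaks, 26 JunB peaks without BATF and 4 BATF peaks without JunB, and its gene spans 347 kb. Foxp1, a forkhead factor of quiescent T cells, held 14, 15 and 0. Pde4b, a phosphodiesterase that breaks down cAMP, held 14, 9 and 2, and Akap13 and Inpp4b held 13 shared peaks each. The genes with the most JunB peaks without BATF were partly others. Gm15319 held 33 and C130026I21Rik 26 with few or no shared peaks (4 and 0), and only 1 of these 33 and 1 of these 26 held an AP-1 match, compared with 8 of 26 at Bach2. The genes with the most BATF peaks without JunB had 5 at most, Lrmp and Trerf1, and of 104 genes with at least 3 such peaks 8 had no JunB peak at all, namely Gtf2i, Lrrtm2, Mef2d, Mertk, Psd4, Rnf180, Slc16a1 and Sufu.

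Peaks were next described at genes that the study names as promoted by JunB, by BATF or by both. For JunB the lists rest on the study's own expression data and for BATF on genes identified in earlier work. The study gives the cells of its expression data as splenic CD4+CD25+ Treg cells and states no stimulation for them. The peaks here are from cells stimulated for 60 h, so binding and expression were not measured in the same stated condition. Besides, 3, 4 and 6 genes are too few for more than a description. Of the genes promoted by both, Icos held 7 shared peaks and 7 JunB peaks without BATF, Fgl2, an immunoregulatory fibrinogen-like protein, 2 and 2, and Klrg1, a receptor of terminally differentiated cells, 1 and 0. In the list of genes promoted by JunB, Ctla4 held 8 and 10, Tigit, an inhibitory receptor, 6 and 5, Maf 4 and 5, and Gzmb, the protease granzyme B, 1 and 2. The study names Gzmb only as needing JunB. None of these 7 genes held a BATF peak without JunB, where 12.9% of all genes did, so that 0 of 7 is near the background. Of the 6 genes promoted by BATF and not JunB, 4 did: Prdm1 with 3, Nt5e, the ectoenzyme CD73, with 2, the chemokine receptor Ccr2 with 2 and Il1rl1 with 1. Each of these 4 genes also held shared peaks (4, 1, 3 and 3), Ccr9 held 1 shared peak and 4 JunB peaks without BATF, and Ccr10 held none of any class. The BATF peak without JunB at Il1rl1 lay at -2.10 kb from the TSS and overlapped an IRF4 peak, and at Ccr2 one lay at -1.68 kb and did not.

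**Figure D4:**
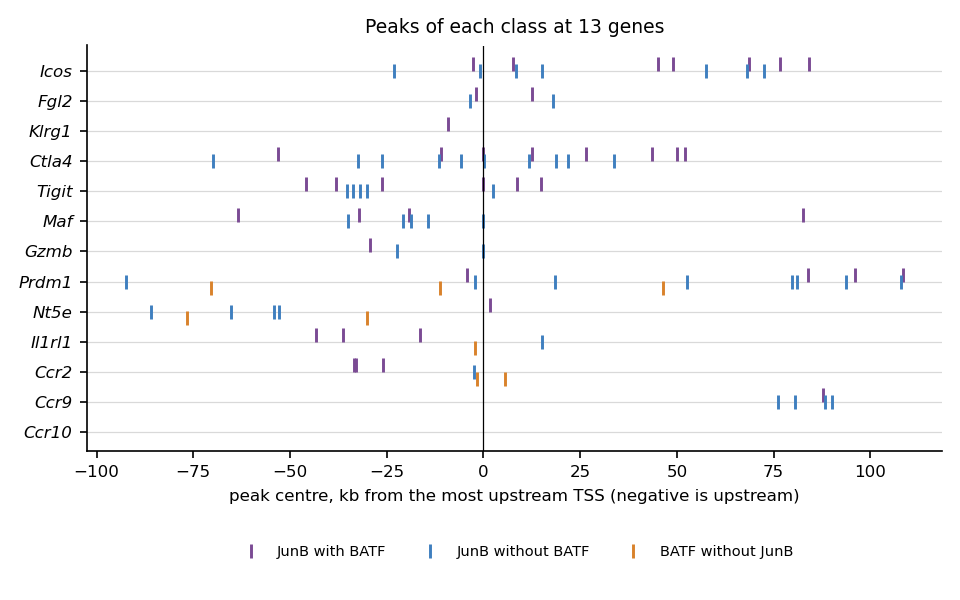
Centres of the peaks assigned to each of 13 genes, in kb from the most upstream TSS of the gene along its direction of transcription, with purple for JunB with BATF, blue for JunB without BATF and orange for BATF without JunB. Orange marks appear at Prdm1, Nt5e, Il1rl1 and Ccr2 and at none of the other genes.

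Genes of Treg identity and activation were unevenly covered. Of 15 such genes 8 held a shared peak, 8 a JunB peak without BATF and 5 a BATF peak without JunB. Among all genes the shares were 21.6%, 33.4% and 12.9%. Foxp3, the defining transcription factor of Treg cells, held no JunB peak and 1 BATF peak, at place 8609 of 13570, in an intron 4.50 kb downstream of its most upstream TSS and overlapping an IRF4 peak. Its middle held no AP-1 match but 1 cAMP response element, shown in capitals.
Foxp3, BATF without JunB, chrX:7161226-7161376: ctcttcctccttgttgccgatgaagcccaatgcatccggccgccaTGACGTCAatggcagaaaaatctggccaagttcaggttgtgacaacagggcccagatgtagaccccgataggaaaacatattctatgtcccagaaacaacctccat
Tgfb1, a suppressive cytokine, held likewise only 1 BATF peak without JunB, at a promoter. Il10, another suppressive cytokine, held 5 shared peaks and 5 JunB peaks without BATF, Ikzf2, the factor Helios, 2 and 10, and Il2ra, the IL-2 receptor chain CD25 by which the cells were isolated, 1 and 4. Tnfrsf4, Lrrc32 and Ebi3 held none of any class.

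The resting and central T cell program was covered in all 3 classes. Of its 13 genes 11 held shared peaks, 12 JunB peaks without BATF and 8 BATF peaks without JunB. The corresponding shares of all genes were 21.6%, 33.4% and 12.9%. Besides Bach2 and Foxp1, the IL-7 receptor chain Il7r held 7, 7 and 1, and S1pr1 6, 6 and 1. The S1pr1 peak at place 744, whose sequence is given above, was the earliest BATF peak without JunB in the whole list and lay at -43.5 kb from the TSS with an IRF4 peak. The nearest JunB peak of this gene, a shared one, had its centre at -46.4 kb. The earliest shared peak of Il7r, at place 113, held 2 AP-1 matches that follow each other without a gap.
Il7r, JunB with BATF, chr15:9485739-9485889: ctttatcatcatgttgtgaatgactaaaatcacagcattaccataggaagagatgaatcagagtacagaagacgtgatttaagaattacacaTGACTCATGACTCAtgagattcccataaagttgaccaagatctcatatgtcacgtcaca

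The genes of the factors themselves differed. Of 13 AP-1 family genes 6 held shared peaks and 4 BATF peaks without JunB, against 21.6% and 12.9% of all genes. Batf held 1 shared peak, in an intron with an AP-1 match, and 1 BATF peak without JunB, at -23.5 kb. Junb held 1 JunB peak without BATF, 3.05 kb from its TSS, without an AP-1 match or an IRF4 peak. Irf4, among 9 IRF genes of which 4 held shared peaks, had 6 shared peaks, 9 JunB peaks without BATF and 2 BATF peaks without JunB. All 8 of its peaks that held BATF overlapped an IRF4 peak, as did 1 of its 9 JunB peaks without BATF.

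Genes of helper programs that Treg cells restrain also held peaks of all 3 classes. The background shares of all genes were 21.6% for shared peaks, 33.4% for JunB peaks without BATF and 12.9% for BATF peaks without JunB. Of 10 helper lineage transcription factors 9 held shared peaks, 8 JunB peaks without BATF and 5 BATF peaks without JunB, with Stat6 alone holding none of any class. Ahr held 6, 6 and 2 and Rora 4, 11 and 0, while Gata3 held 3, 1 and 1. Of 12 helper cytokine genes 8 held shared peaks. The earliest was an intronic peak near Il13 at place 93. Of 12 costimulatory and inhibitory receptors 8 held shared peaks and 9 JunB peaks without BATF, with 6 and 12 at Cd28 and 1 and 13 at Cd226, the activating counterpart of TIGIT, which also held 3 BATF peaks without JunB.

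Markers of other cells spread around the background. Of 8 B cell markers 2 held shared peaks, Ebf1 with 7 and Pax5 with 1. Of 8 myeloid markers 1 did, of 8 cytotoxic T and NK markers 3, and of 10 hepatocyte and neuron genes 2, against 21.6% of all genes. For T cell lineage markers it was 6 of 10, with 2 shared peaks at Cd3e and no peak of any class at Cd4, and for housekeeping genes 4 of 10. JunB peaks without BATF were listed at 5 of the 10 hepatocyte and neuron genes and 6 of the 10 housekeeping genes, against 33.4% of all genes. A peak list does not measure whether a gene is expressed, so the cell type named by the labels could not be checked by its markers.

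**Figure D5:**
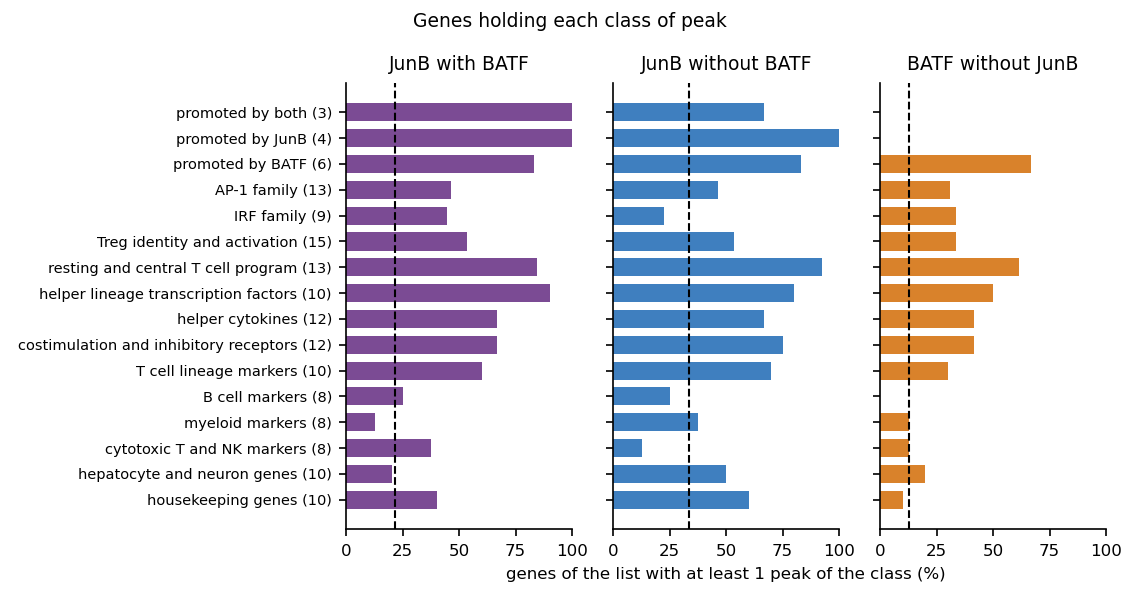
Percent of the genes of each list (number of genes in parentheses) that held at least 1 peak of the class as the nearest gene within 100 kb. The first 3 rows are the genes that the study names as promoted by both factors, by JunB, and by BATF and not JunB, and dashed lines mark the share of all protein-coding genes (21.6%, 33.4% and 12.9%). The Treg, resting T cell, helper, receptor and T cell lineage lists stood above all 3 lines. So did the AP-1 family list and the list promoted by BATF and not JunB.

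The earliest promoter peak of BATF without JunB stood at place 1826 of its list. The genes named next were chosen after their values were seen. Mdfic and Clasp1, a microtubule-binding protein, had such peaks at places 2497 and 2674, neither with an IRF4 peak in Junb-sufficient cells. Ptpn1, a tyrosine phosphatase of cytokine signalling, and the receptor Notch1 had them at places 3634 and 3883, both with an IRF4 peak and 1 AP-1 match. Cd3d, a chain of the T cell receptor complex, had one at place 4331, without either in Junb-sufficient cells.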

How the data were processed

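ChIP-seq of JunB and BATF (1 library each) was analysed, with the IRF4 lists of Junb-sufficient and Junb-deficient cells for overlap. The authors aligned reads to mm9 and called peaks in each library by itself with HOMER, version 4.8 per the submitters' notes, at a false discovery rate of 0.001 and a 4-fold excess over the local 10 kb. Per the file headers, 27399986 (JunB) and 26496780 (BATF) tags were recorded. With a limit of 1 tag considered per bp, the headers give 0.00801 and 0.008053 tags per bp. The local filter removed 5.25% and 36.2% of putative peaks. The deposited files give each peak's start and end and a score that the authors left at 1 for every peak, so no height entered and precision was expressed over peaks.

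Lists were used as deposited, with positions counted from 1. TSS positions (69976, protein-coding transcripts) came from the GENCODE annotation of NCBIM37, which is mm9 (the chromosome lengths were checked), and sequences from its genome. Annotation went in the order promoter, coding exon, untranslated exon, intron, intergenic. CTCF and kappaB were searched as degenerate consensus motifs. All 151 listed genes were found in the annotation, some through RefSeq synonyms. Genes were named from 16 lists, as the 8 genes with the most peaks of each class, and as the 8 genes with 3 or more BATF peaks without JunB and the fewest JunB peaks. Peaks named were the first of a class or gene in list order. Members, lists and alternatives were chosen with earlier results of these data known.

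Shares have exact binomial (Clopper-Pearson) 95% intervals and differences Newcombe intervals, and stratified differences are Mantel-Haenszel estimates over 20 strata of place. No test between libraries was made. The alternatives were other definitions of overlap, promoters, TSSs, motifs and gene assignment, shorter lists, strata, and the naming by antibody. Procedures were tested on simulated data, in which 35.1% of 20000 peaks had a partner and 35.1% were recovered. A stratified difference of 10 points was recovered as 9.70 points. An AP-1 site was planted in 29.6% of 4000 windows, and all were found. The simulated peaks were evenly spaced and the windows held only A and T outside planted sites. These tests therefore check the code and not its performance on clustered peaks or real sequence. Python 3.11.15, NumPy 2.4.6, SciPy 1.17.1, pysam 0.24.0 and matplotlib 3.10.9 were used.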

Additional observations from a re-analysis of the deposited data

How the results depend on the processing

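Under 93 recomputed values, 68 kept their direction and their side of 0 or stayed near the reported value. The share of JunB peaks with BATF was 29.6% with centres within 100 bp, 35.3% with all peaks at the width of BATF peaks, 38.0% in the first 50% of each list, 54.0% with equal numbers of first-listed peaks and 42.8% with the naming by antibody. In the same order the share of BATF peaks with JunB was 64.7%, 72.2%, 81.8%, 53.3% and 40.3%. The promoter difference between JunB peaks with and without BATF had no stable sign. It was 0.098 points at the width of BATF peaks, 0.059 points with genes of every biotype, 0.38 points within strata, 1.12 points for promoters within 2500 bp and 2.95 points with the naming by antibody, but -0.49 points for promoters within 500 bp, -0.50 points with the most upstream TSS, -0.93 points with equal numbers and -1.22 points in the first 50%. Genes with a shared peak numbered 3098 in the first 50%, 2667 within 10 kb and 11953 when every gene within 100 kb was counted, and genes with BATF but no JunB 334 in the first 50%, 2064 with equal numbers and 4494 with the naming by antibody. The cause of these shifts beyond the alternatives' own construction was not tested. The other promoter differences and those of TSS distance, AP-1 and IRF4 kept their direction with intervals that excluded 0 under every alternative run. No paired analysis was possible because the lists hold 1 library per condition. Without tag counts in the lists, depth limits which weak sites were listed to an extent that cannot be given, and an unlisted peak does not show that a factor was absent.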
